A study of Mus musculus with 477 samples.

Results

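Cycling tumor cells were the cells of 4 mouse mammary tumors that carried reads of genes used in the last stages of the cell cycle. They were chosen by the summed level of *Mki67*, *Top2a*, *Cdk1*, *Ccnb1* and *Birc5*: a tumor cell was a member when its read counts of these 5 genes, scaled to CPM (the count of a gene per 1000000 reads of the same cell), added up to 200 or more. The rule found 56 members among 165 tumor cells, and the remaining 109 tumor cells are called non-cycling here. The series held 477 cells in all, the other 312 being luminal cells of the mammary gland.

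All 4 tumors grew in mice with *MMTV-Cre* and *Brca1* fl/fl. The mice of BrT1 and BrT2 (Br) had no floxed *Trp53*, and those of Br53T1 and Br53T2 (Br53) were also *Trp53* fl/+. The MMTV promoter drives Cre in mammary epithelium, where Cre deletes the floxed alleles. By design, tumor cells in which Cre acted lack intact *Brca1*, and in both Br53 tumors 1 allele of *Trp53* is deleted there as well. The sort of the tumor cells did not use mGFP, the reporter signal of cells with Cre activity. The luminal mice were virgin (v) or at day 12.5 of pregnancy (p), with the genotypes Br (*Brca1* fl/fl), 53 (*Trp53* fl/+) and Br53 (both), each with *MMTV-Cre*. All mice had a mixed C57BL/6 and 129/Sv background and carried the *ROSA* mT/mG reporter. The luminal mice were 3 to 4 months old, whereas tumors of the *Brca1* model form in older mice; the age of each tumor mouse was not given in the sources used here. Tumor cells had been sorted as CD24+ and DAPI- and luminal cells as CD24 high, CD29 low and mGFP+, and each was captured alone in a chamber of a Fluidigm C1 chip, which makes cDNA from 1 cell at a time. Each tumor was 1 mouse on 1 chip. The chip of Br53T2 also held the luminal mouse pBrL-2, and for the other 3, which were alone on theirs, a tumor, its mouse and its chip cannot be told apart. The tumor is therefore the replicate, and cells of 1 tumor are not.

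A dividing cell copies its DNA in S phase and separates the copies in mitosis, with the gap phases G1 before and G2 after the copying. Genes for DNA copying are switched on at the start of S phase by E2F factors once RB is inactivated, whereas genes for spindle, chromosome condensation and division are switched on later, by the MuvB complex with MYBL2 and FOXM1, through promoter elements named CHR and CCAAT. In tumors that lack BRCA1, a protein of homologous recombination that repairs broken DNA after copying, cells keep dividing with this repair impaired.

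The promoters of 6 genes are printed because together they show both classes of element. They are the 250 bases before the start that the RefSeq promoter table uses on GRCm38.p6, the assembly also named mm10, and each is written 5′ to 3′ on the strand of its gene. *Ube2c* (chr2:164769679-164769928, plus strand) and *Nusap1* (chr2:119618048-119618297, plus strand) were called higher in cycling cells, *Cdk1* (chr10:69352913-69353162, minus strand) is a gene of the rule, and *Ccnb2* (chr9:70421555-70421804, minus strand) is a gene of the mitosis list. *Mcm6* (chr1:128359706-128359955, minus strand) and *Mcm5* (chr8:75109259-75109508, plus strand) are genes of the S phase list; the annotated gene *Mcm5* begins at base 75109468, inside its window. In the first 4 sequences the capitals mark CHR (TTTGAA) and CCAAT, on either strand; in the last 2 they mark the E2F letters TTTCCCGC or TTTGGCGC on either strand, and CCAAT is left in lower case. The window of *Nusap1* held none of these letters. *Shcbp1* and *Pbk*, which were also called higher in cycling cells, had no entry in the promoter table.
Ube2c: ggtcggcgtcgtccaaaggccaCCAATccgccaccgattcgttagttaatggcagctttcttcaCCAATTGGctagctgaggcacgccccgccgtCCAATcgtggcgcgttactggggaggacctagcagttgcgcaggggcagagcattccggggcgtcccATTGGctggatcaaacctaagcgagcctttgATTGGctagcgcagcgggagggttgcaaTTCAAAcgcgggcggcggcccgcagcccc
Nusap1: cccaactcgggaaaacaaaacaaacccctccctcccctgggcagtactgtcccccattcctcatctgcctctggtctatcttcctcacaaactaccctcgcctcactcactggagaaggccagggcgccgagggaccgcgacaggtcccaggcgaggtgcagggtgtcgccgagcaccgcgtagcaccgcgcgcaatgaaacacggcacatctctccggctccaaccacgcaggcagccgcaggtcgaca
Cdk1: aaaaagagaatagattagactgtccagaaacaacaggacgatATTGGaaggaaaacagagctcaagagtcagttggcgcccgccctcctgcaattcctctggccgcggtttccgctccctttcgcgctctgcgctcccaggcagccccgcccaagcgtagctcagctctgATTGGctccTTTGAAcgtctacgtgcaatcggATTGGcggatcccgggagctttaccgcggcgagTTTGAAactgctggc
Ccnb2: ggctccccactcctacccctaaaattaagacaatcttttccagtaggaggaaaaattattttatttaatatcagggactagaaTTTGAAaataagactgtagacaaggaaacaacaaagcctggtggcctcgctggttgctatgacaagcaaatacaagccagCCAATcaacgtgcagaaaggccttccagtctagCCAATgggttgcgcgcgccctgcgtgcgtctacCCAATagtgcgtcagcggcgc
Mcm6: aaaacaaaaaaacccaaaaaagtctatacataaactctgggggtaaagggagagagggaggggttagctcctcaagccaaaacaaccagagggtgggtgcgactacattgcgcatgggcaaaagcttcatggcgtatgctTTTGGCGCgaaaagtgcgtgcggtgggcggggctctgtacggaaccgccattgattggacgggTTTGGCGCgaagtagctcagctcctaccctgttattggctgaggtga
Mcm5: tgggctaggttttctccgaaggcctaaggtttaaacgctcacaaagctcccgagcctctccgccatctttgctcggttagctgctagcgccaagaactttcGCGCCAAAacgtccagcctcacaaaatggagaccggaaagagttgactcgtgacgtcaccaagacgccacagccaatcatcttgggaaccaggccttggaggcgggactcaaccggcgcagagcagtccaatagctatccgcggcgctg

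The CHR letters stood in the window of 14 of the 43 genes of the mitosis list that had a RefSeq promoter (32.6%), of 3 of 31 genes of the S phase list (9.68%) and of 1207 of 9364 tested genes (12.9%). The E2F letters stood in 1 of 43 (2.33%), 6 of 31 (19.4%) and 287 of 9364 (3.06%). CCAAT stood in 32 of 43 (74.4%), 18 of 31 (58.1%) and 3816 of 9364 (40.8%). Of the 5 genes of the rule, 3 held CHR, 4 held CCAAT and 0 held the E2F letters. The mitosis promoters thus carried CHR more often than the S phase promoters did, and the E2F letters less often in these counts, which are a description with no test and do not say that a factor binds there.

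BrT1 stood apart from the other tumors in its markers. The epithelial gene *Epcam* was at 28.4 CPM in its cycling cells and 0.135 in its non-cycling cells, against 423 to 1261 CPM in either state of the other 3 tumors, and *Cdh1*, which encodes E-cadherin, had no read in either state. *Dcn*, the matrix proteoglycan decorin that marks fibroblasts, was at 4069 CPM in its cycling and 4947 CPM in its non-cycling cells, against at most 101 CPM elsewhere. The keratin gene *Krt18* was read in it at 350 and 243 CPM, against 1941 to 2766 CPM in the other tumors. The cells labelled as tumor cells of BrT1 thus had little *Epcam* and no *Cdh1* read. Its *Epcam* level over all cells of a state was higher in the cycling state, and how many cells carried it was not counted. Main results are given with and without this tumor.

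The share of cycling cells differed between the tumors. In BrT1, 32 of 47 cells (68.1%, exact 95% binomial interval 52.9 to 80.9%) were cycling. BrT2 had 4 of 37 (10.8%, 3.03 to 25.4%), Br53T1 had 6 of 30 (20%, 7.71 to 38.6%) and Br53T2 had 14 of 51 (27.5%, 15.9 to 41.7%). BrT1 stood apart with an interval that did not overlap the other 3, whose intervals overlapped one another. BrT1 alone gave 32 of the 56 members, and without it 24 of 118 tumor cells were cycling (20.3%, 13.5 to 28.7%). These intervals cover counting error only, and with 1 mouse per tumor they say nothing of the spread between mice of a genotype.

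Luminal cells past the same threshold made up 78 of 312 cells (25%, interval 20.3 to 30.2%). By mouse the luminal shares were 22.9% in vBrL, 23.1% in vBr53L, 22.5% in pBrL-1, 47.4% in pBrL-2, 34% in pBr53L and 25% in p53L. In v53L, 0 of 40 cells passed, which allows a share of up to 7.5% by the floor of 3 cells (exact interval 0 to 8.81%). The share of BrT1 lay above every luminal mouse, that of Br53T2 lay among the 6 luminal mice that had cycling cells, and those of BrT2 and Br53T1 lay below these 6 and above v53L.

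The threshold did not fall in a gap of the distribution. Of the 165 tumor cells, 18 had no read of the 5 genes, 67 had a sum above 0 and under 50 CPM, and 16 had 50 to 100 CPM. Only 8 cells lay between 100 and 200 CPM, 12 between 200 and 400, 8 between 400 and 1000, and 36 at 1000 or more. Just inside the threshold were cells at 202 CPM (Br53T1), 203 (BrT2), 211 (Br53T2) and 216 (BrT1), and just outside it cells at 190 (BrT2), 183 (Br53T2), 178 (BrT1) and 175 (Br53T1). A threshold of 100 CPM gave 34, 7, 8 and 15 cycling cells in BrT1, BrT2, Br53T1 and Br53T2, and a threshold of 400 CPM gave 28, 3, 3 and 10. At 400 CPM the share was 59.6% in BrT1, 8.11% in BrT2, 19.6% in Br53T2 and 10% in Br53T1, so BrT1 stayed the tumor with the largest share and BrT2 the one with the smallest.

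**Figure D1:**
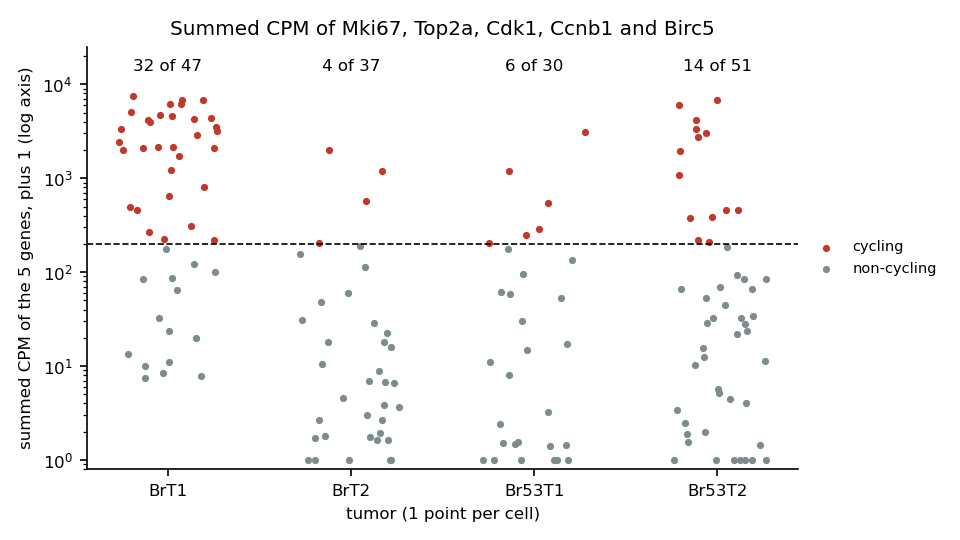
Each point is 1 tumor cell, placed on the y axis by its summed CPM of *Mki67*, *Top2a*, *Cdk1*, *Ccnb1* and *Birc5* plus 1 (log scale) and on the x axis by its tumor; the line is the threshold of 200 CPM. BrT1 has 32 of 47 cells above the line and BrT2 has 4 of 37.

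The 5 genes of the rule chose the cells, so their levels are given as a description with no test. *Mki67* encodes the antigen Ki-67, which coats mitotic chromosomes, *Top2a* the enzyme that untangles DNA, *Cdk1* the kinase that drives mitosis, *Ccnb1* its partner cyclin B1, and *Birc5* survivin, a subunit of the complex that corrects chromosome attachment. For each tumor, reads were summed over the cycling cells and over the non-cycling cells, and the CPM of these sums are called summed CPM. Summed *Mki67* in BrT1, BrT2, Br53T1 and Br53T2 was 270, 60.7, 121 and 1013 CPM in cycling cells and 1.86, 9.70, 7.13 and 6.70 CPM in non-cycling cells. *Top2a* was 1638, 335, 138 and 797 CPM against 21.6, 2.52, 6.80 and 9.06 CPM. Within the members the makeup of the sum varied: *Mki67* was highest in Br53T2, and *Top2a* was highest in BrT1 and lowest in Br53T1.

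Summed *Cdk1* was 637, 269, 258 and 520 CPM in the cycling cells of BrT1, BrT2, Br53T1 and Br53T2, and 12.8, 1.80, 1.34 and 6.67 CPM in the non-cycling cells. *Ccnb1* was 247, 38.9, 12.2 and 166 CPM against 1.32, 0.132, 1.01 and 2.91 CPM. *Birc5* was 298, 223, 93.3 and 147 CPM against 11.8, 8.69, 12.5 and 2.73 CPM. Each of the 5 genes had its lowest cycling value in BrT2 or Br53T1, where the members were few. The summed score per cycling cell had a median of 2653 CPM in BrT1 (216 to 7433), 879 in BrT2 (203 to 1989), 419 in Br53T1 (202 to 3108) and 1510 in Br53T2 (211 to 6881).

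Most members carried several genes of the rule. Among the 56 cycling cells, 34 had reads of all 5 genes, 10 of 4, 7 of 3, 4 of 2 and 1 of only 1. In 15 of them 1 gene gave over 90% of the sum, which was so in 7 cells of BrT1, 1 of BrT2, 1 of Br53T1 and 6 of Br53T2.

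Tumor cells had been sequenced to 344970 to 2881602 reads each. The median number of reads per cell was lower in the cycling cells of all 4 tumors, at a difference of -88462 in BrT1, -292728 in BrT2, -261897 in Br53T2 and -362107 in Br53T1, and the exact permutation test over the 4 tumors gave p = 0.125, the smallest p that 4 tumors allow (two-sided). After each cell was thinned to 100000 reads, the median number of detected genes was lower in cycling cells by 353 in BrT1 and 60.5 in BrT2, and higher by 764.5 in Br53T1 and 836 in Br53T2. The mean difference of 297 genes (SD 594, n = 4) did not differ from 0 beyond its spread (exact permutation p = 0.5). At thresholds of 100 and 400 CPM the difference was positive in all 4 tumors, at a mean of 523.5 and 557.5 genes (exact permutation p = 0.125 for both). The sums behind the comparison held 60945384, 4346596, 9473644 and 23074713 reads for the cycling cells of BrT1, BrT2, Br53T1 and Br53T2 and 29637236 to 67758270 reads for the non-cycling cells, so the estimates for BrT2 and Br53T1 rest on the fewest cells and reads.

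The remaining genes were compared between the states within each tumor by edgeR's quasi-likelihood test on the 8 sums, with the tumor as a block, and a gene was called at a Benjamini-Hochberg adjusted p under 0.05 over 11836 genes. In this fit 4 genes rose in cycling cells and 0 fell: *Ube2c*, *Nusap1*, *Shcbp1* and *Pbk*. That is 4 of 11836 genes higher (0.0338%) and 0 lower (0%), with 525 genes at an unadjusted p under 0.05 (246 higher, 279 lower). DESeq2 on the same sums called 205 genes higher (1.73%) and 182 lower (1.54%), all 4 included. By the signs alone, 711 genes were higher in the cycling cells of all 4 tumors (6.01%) and 1012 were lower in all 4 (8.55%). The balance turned at a threshold of 100 CPM (958 higher, 772 lower) and without BrT2 (1687 higher, 1535 lower). The median log2 difference over all tested genes was -0.31 by edgeR, and list medians below are to be read against it. On the log2(summed CPM + 1) scale it was 0.10 in BrT1, -0.55 in BrT2, -0.02 in Br53T2 and -0.07 in Br53T1. Without BrT1 or without Br53T2, edgeR called 0 genes (450 and 382 at an unadjusted p under 0.05), and without BrT2 it called *Shcbp1* and *Ube2c* only. Without Br53T1 it kept 3 of the 4 genes, and *Pbk* was at an adjusted p of 0.0596 by edgeR. The size of the difference without BrT1 was 5.81 for *Ube2c*, 6.61 for *Nusap1*, 8.67 for *Shcbp1* and 4.66 for *Pbk* (log2), each close to its value with all 4 tumors.

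*Ube2c*, which encodes the ubiquitin-conjugating enzyme that serves the anaphase-promoting complex, lies on chr2:164769929-164772902. Its summed CPM in cycling cells was 458 in BrT1, 126 in BrT2, 518 in Br53T2 and 146 in Br53T1, and in non-cycling cells 4.89, 2.06, 5.62 and 4.27 in the same order. The lowest cycling value lay far above the highest non-cycling value, so the groups did not overlap. The log2 difference was 5.96 ± 0.50 (SE; edgeR adjusted p = 0.0173). After thinning, a read of *Ube2c* was found in 28 of 32, 3 of 4, 4 of 6 and 8 of 14 cycling cells of BrT1, BrT2, Br53T1 and Br53T2 and in 5 of 15, 3 of 33, 3 of 24 and 8 of 37 of their non-cycling cells.

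*Nusap1*, a microtubule-binding protein of the spindle, lies on chr2:119618298-119650165. Summed *Nusap1* was 197, 276, 74.5 and 132 CPM in the cycling cells of BrT1, BrT2, Br53T1 and Br53T2 and 0.978, 1.67, 1.92 and 0.871 CPM in the non-cycling cells. Every cycling value lay above every non-cycling value, with Br53T1 the lowest of the cycling sums. The log2 difference was 6.85 ± 0.72 (SE; edgeR adjusted p = 0.0449). In Br53T1 only 2 of 6 cycling cells had a read after thinning, against 22 of 32 in BrT1, 3 of 4 in BrT2 and 10 of 14 in Br53T2.

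*Shcbp1* (chr8:4735976-4779567), which encodes an SHC1-binding protein and stood in none of the gene lists, showed the largest change of the 4. Its summed CPM in cycling cells was 362, 436, 214 and 49.7 in BrT1, BrT2, Br53T1 and Br53T2, against 0.709, 0.263, 1.21 and 0.162 in non-cycling cells. Here Br53T2 had the lowest cycling value and the groups again did not overlap. The log2 difference was 8.72 ± 0.77 (SE; edgeR adjusted p = 0.0173). A thinned read was found in 24 of 32, 3 of 4, 5 of 6 and 7 of 14 cycling cells and in 1 of 15, 2 of 33, 1 of 24 and 0 of 37 non-cycling cells.

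*Pbk* (chr14:65805911-65817822), a kinase active in mitosis, had summed CPM of 185, 259, 216 and 276 in the cycling cells of BrT1, BrT2, Br53T1 and Br53T2 and 5.97, 6.89, 16.9 and 7.73 in the non-cycling cells. Its cycling values were the most even of the 4 genes, and they lay above all non-cycling values. The log2 difference was 4.70 ± 0.52 (SE; edgeR adjusted p = 0.0492). *Pbk* was read after thinning in 6 of 6 cycling cells of Br53T1, and in 19 of 32, 2 of 4 and 7 of 14 of those of BrT1, BrT2 and Br53T2.

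**Figure D2:**
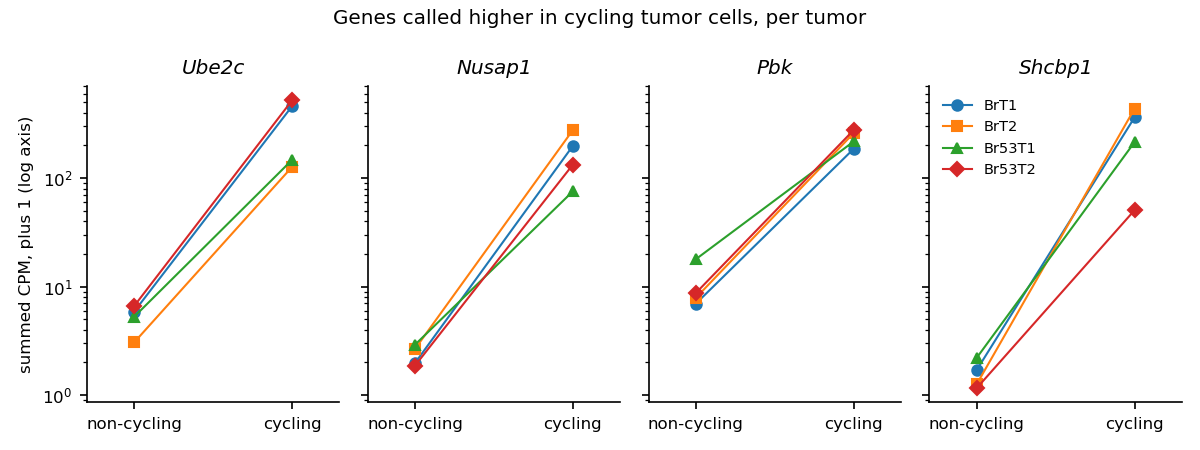
Summed CPM plus 1 (log scale) of the 4 called genes in the cycling and the non-cycling cells of each tumor, 1 line per tumor and 1 panel per gene. Every cycling value lies above every non-cycling value of the same gene, and *Shcbp1* in Br53T2 is at 49.7 CPM.

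The mitosis and G2/M list held 51 tested genes besides the rule's own. Of these, 3 were called (*Ube2c*, *Nusap1* and *Pbk*), 44 had an unadjusted p under 0.05 and all 44 were higher, DESeq2 called 45 higher and 0 lower, and 41 were higher in all 4 tumors, against 6.01% of all genes. Their median log2 difference was 4.43, from 1.16 to 8.18, and 4.21 without BrT1. Per tumor the list median was 4.70 in BrT1, 3.18 in BrT2, 4.99 in Br53T2 and 3.05 in Br53T1, on the log2(summed CPM + 1) scale used for all values per tumor. The rule's genes act in the same phase, so the direction of this list is no independent evidence.

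Among the motor and kinetochore genes, *Cenpf*, which encodes a large kinetochore protein, was at 268, 333, 80.5 and 329 CPM in the cycling cells of BrT1, BrT2, Br53T1 and Br53T2 and at 2.26, 2.72, 3.10 and 20.2 CPM in the non-cycling cells. The groups did not overlap, yet its log2 difference of 5.57 ± 0.73 missed the threshold (edgeR adjusted p = 0.105). *Cenpe*, a kinesin that moves chromosomes to the spindle equator, was at 560, 67.6, 77.6 and 329 CPM against 20.5, 10.1, 6.56 and 20.3 CPM (log2 difference 3.71 ± 0.50; edgeR adjusted p = 0.107). *Kif11*, the kinesin that pushes the spindle poles apart, was at 261, 139, 141 and 158 CPM against 3.00, 3.80, 12.7 and 1.31 CPM (log2 difference 5.48 ± 0.80; edgeR adjusted p = 0.173). *Cenpe* was highest in BrT1 and lowest in BrT2, whereas *Kif11* was nearly level over BrT2, Br53T1 and Br53T2.

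The cyclins and mitotic kinases were less even over the tumors. *Ccna2*, cyclin A2 of S phase and G2, was at 164, 133 and 113 CPM in the cycling cells of BrT1, BrT2 and Br53T2 and at 17.5 CPM in those of Br53T1, where the non-cycling cells had 11.7 CPM. In the other non-cycling sums it was at 1.65, 0.198 and 0.590 CPM, and its log2 difference of 6.61 ± 1.78 did not pass the test (edgeR adjusted p = 0.754). *Ccnb2*, cyclin B2, was at 273, 23.7, 58.9 and 185 CPM in the cycling cells of BrT1, BrT2, Br53T1 and Br53T2 against 3.00, 8.25, 5.00 and 3.39 CPM (log2 difference 4.35 ± 1.04; edgeR adjusted p = 0.553). Br53T1 was thus the low tumor for *Ccna2* and BrT2 the low one for *Ccnb2*.

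In BrT2 the sums of some mitotic genes were not higher in the 4 cycling cells. *Plk1*, the polo-like kinase of mitotic entry, was at 72.6, 50.8 and 80.3 CPM in the cycling cells of BrT1, Br53T1 and Br53T2 and at 1.38 CPM in those of BrT2, below the 2.46 CPM of its non-cycling cells. *Cdc20*, the activator of the anaphase-promoting complex, was at 129, 19.3 and 36.5 CPM in the same 3 tumors and at 3.45 CPM in the cycling cells of BrT2, below the 11.2 CPM of its non-cycling cells. *Ndc80*, a kinetochore protein, was at 102, 59.1 and 79.8 CPM and had no read in the cycling cells of BrT2. The shares of BrT2 cells with a read after thinning ran against the sums for *Plk1* (1 of 4 cycling and 1 of 33 non-cycling cells) and *Cdc20* (2 of 4 and 2 of 33). For *Ndc80* they were 0 of 4 and 0 of 33. *Aurkb*, the kinase that works with survivin, was higher in all 4 tumors, at 128, 26, 54.2 and 157 CPM in BrT1, BrT2, Br53T1 and Br53T2 against 0.0337, 3.64, 0.0220 and 3.53 CPM.

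The DNA replication and S phase list held 38 tested genes, with 0 called by edgeR, 26 at an unadjusted p under 0.05, all higher, and 26 called higher and 0 lower by DESeq2. In all 4 tumors 29 of the 38 were higher (76.3%, against 6.01% of all genes) and 0 were lower. The median log2 difference was 2.5, or 2.54 without BrT1, and the list medians were 1.94 in BrT1, 2.05 in BrT2, 2.62 in Br53T2 and 2.27 in Br53T1. The S phase medians lay below the mitosis medians in each tumor, which was not tested, and the cells had been chosen by genes of the later phase.

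*Rrm2*, the subunit of ribonucleotide reductase that limits the supply of DNA building blocks, was at 226, 209, 576 and 317 CPM in the cycling cells of BrT1, BrT2, Br53T1 and Br53T2 and at 77.8, 12.9, 29.5 and 45.9 CPM in the non-cycling cells (log2 difference 3.12 ± 0.58; edgeR adjusted p = 0.293). *Tyms*, thymidylate synthase, was at 124, 187, 112 and 291 CPM against 22.2, 48.4, 8.76 and 21.3 CPM (log2 difference 2.91 ± 0.55; edgeR adjusted p = 0.293). The sums of neither gene overlapped between the states, and the non-cycling cells of BrT1 kept the highest *Rrm2* of the non-cycling sums. In BrT2 a *Tyms* read after thinning was found in 1 of 4 cycling and 6 of 33 non-cycling cells.

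The MCM helicase unwinds DNA at the replication fork. *Mcm6* was at 317, 321, 429 and 306 CPM in the cycling cells of BrT1, BrT2, Br53T1 and Br53T2 against 126, 86.6, 36.3 and 50.8 CPM (log2 difference 2.27 ± 0.46; edgeR adjusted p = 0.394), the most even cycling level of the genes described here. *Mcm5* was at 186, 462 and 111 CPM in BrT1, Br53T1 and Br53T2 against 10.1, 3.33 and 1.80 CPM, but at 30.1 CPM against 36.3 CPM in BrT2. The promoters of both carry E2F letters, 2 matches in *Mcm6* and 1 in *Mcm5*.

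*Uhrf1*, which keeps DNA methylation through replication, was at 63.4, 318, 268 and 215 CPM in the cycling cells of BrT1, BrT2, Br53T1 and Br53T2 against 18.2, 47, 49.1 and 45.5 CPM (log2 difference 2.25 ± 0.42). *Pcna*, the clamp that holds DNA polymerase, was at 77.9, 245, 116 and 85.5 CPM against 38.6, 30.2, 52.1 and 48.4 CPM (log2 difference 1.40 ± 0.58). *Cdc6*, which licenses replication origins in G1, was lower in the cycling cells of BrT1 (44.5 against 66.4 CPM) and Br53T1 (0 against 5.44 CPM) and higher in those of BrT2 (100 against 12.6 CPM) and Br53T2 (52.7 against 1.14 CPM). *Pcna* differed least in BrT1 and Br53T2 and most in BrT2, and the *Cdc6* sums had no shared direction. These *Cdc6* sums rested on few cells. A read after thinning was found in 8 of 32 cycling and 1 of 15 non-cycling cells of BrT1, where the shares ran against the sums. It was found in 1 of 4 and 2 of 33 of BrT2, 0 of 6 and 1 of 24 of Br53T1, and 2 of 14 and 2 of 37 of Br53T2.

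Members differed among themselves in which list was stronger. The S phase genes of a cycling cell summed to a median of 3724 CPM in BrT1, 1281 in BrT2, 3548 in Br53T2 and 5521 in Br53T1, and the mitosis and G2/M genes to 8309, 7101, 5023 and 2203 CPM in the same order. Only in Br53T1 was the S phase median the higher of the 2. Cell by cell, the S phase sum was above the mitosis sum in 7 of 32 cycling cells of BrT1, 2 of 4 of BrT2, 3 of 6 of Br53T1 and 6 of 14 of Br53T2, which is 18 of 56 (32.1%) or 11 of 24 without BrT1, and in 72 of 109 non-cycling cells (66.1%). The rule was made of late genes, so this share is a description of the members it picks.

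Few non-cycling cells reached the median of the members of their tumor. The rule's genes share the phase of the mitosis list, so for that list this is a description. The lowest S phase sum of a member was 374, 652 and 285 CPM in BrT1, BrT2 and Br53T2, below the non-cycling median of each. In Br53T1 it was 851 CPM, above the non-cycling median. The median non-cycling cell had 504, 704, 595 and 361 CPM of S phase genes in BrT1, BrT2, Br53T1 and Br53T2 and 572, 393, 269 and 266 CPM of mitosis genes. Non-cycling cells at or above the cycling S phase median of their tumor numbered 1 in BrT1, 5 in BrT2, 1 in Br53T2 and 0 in Br53T1. At or above the cycling mitosis median there were 0 in each BrT tumor and 1 in each Br53T tumor. The 5 of BrT2 exceed the 4 members of that tumor, where the cycling S phase median was also lowest.

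**Figure D3:**
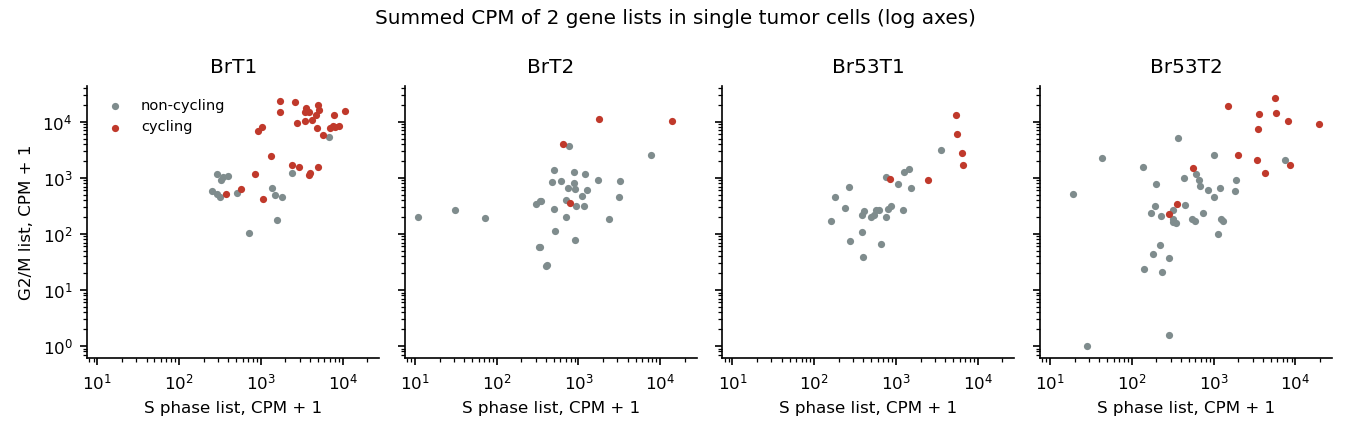
Each point is 1 tumor cell, with the summed CPM plus 1 of the S phase list on the x axis and of the mitosis and G2/M list on the y axis (both log scales), 1 panel per tumor. Most cycling cells lie up and to the right of the non-cycling cells of their tumor, and 18 of 56 have the larger S phase sum.

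The homologous recombination and Fanconi list is the repair pathway from which *Brca1* was deleted. It held 31 tested genes, with 0 called by edgeR, 7 at an unadjusted p under 0.05, all higher, and 7 called higher and 0 lower by DESeq2. In all 4 tumors 11 of the 31 were higher (35.5%, against 6.01% of all genes) and 0 were lower. The median log2 difference was 2.36, or 1.69 without BrT1, and the tumor medians were 2.21 in BrT1, 1.57 in BrT2, 1.44 in Br53T2 and 1.38 in Br53T1.

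*Rad51ap1*, an accessory protein of homologous recombination, was at 17.0, 116, 27 and 91.5 CPM in the cycling cells of BrT1, BrT2, Br53T1 and Br53T2 and at 0.236, 1.25, 0.0220 and 0.133 CPM in the non-cycling cells (log2 difference 7.84 ± 1.3; edgeR adjusted p = 0.221). *Parpbp*, an inhibitor of homologous recombination, was at 31.7, 92, 31.8 and 11.4 CPM against 0.0675, 0.0658, 0.242 and 0.0443 CPM (log2 difference 8.41 ± 1.40; edgeR adjusted p = 0.221). The sums of both were low in the non-cycling cells and did not overlap between the states, but they rested on part of the members. A read after thinning was found for *Rad51ap1* in 10 of 32, 2 of 4, 2 of 6 and 7 of 14 cycling cells of BrT1, BrT2, Br53T1 and Br53T2. For *Parpbp* it was found in 8 of 32, 2 of 4, 2 of 6 and 2 of 14. *Bard1*, which encodes the partner that binds the BRCA1 protein, was at 13.2, 165, 37.5 and 29.1 CPM against 0.709, 0.636, 0.484 and 4.18 CPM (log2 difference 5.22 ± 1.29; edgeR adjusted p = 0.580).

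*Brca2*, a mediator of homologous recombination, was at 52.6, 99.4, 15.2 and 47.8 CPM in BrT1, BrT2, Br53T1 and Br53T2 against 2.80, 15.9, 5.24 and 18 CPM. *Brca2* was thus higher in the cycling cells of each tumor.

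Reads of the targeted *Brca1* were found in the tumor cells. Summed *Brca1* was 84.9 CPM in the cycling cells of BrT1, 0.230 in BrT2, 59.8 in Br53T2 and 82.5 in Br53T1, and 0.270, 1.84, 8.66 and 13.8 CPM in the non-cycling cells in the same order. It was higher in the cycling cells of 3 tumors and near 0 in both states of BrT2, with a log2 difference of 2.67 ± 1.85 that did not pass the test. It was 1.34 without BrT1, 3.99 without BrT2 and 6.90 at a threshold of 100 CPM. Counts are per gene, so a transcript that has lost exons still counts, and these reads do not tell a deleted from an intact allele. *Trp53*, floxed on 1 allele in the Br53 tumors, was at 5.58, 27.6, 74.6 and 284 CPM in cycling cells of BrT1, BrT2, Br53T1 and Br53T2 against 3.95, 51.9, 65.6 and 91.6 CPM, with no shared direction.

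**Figure D4:**
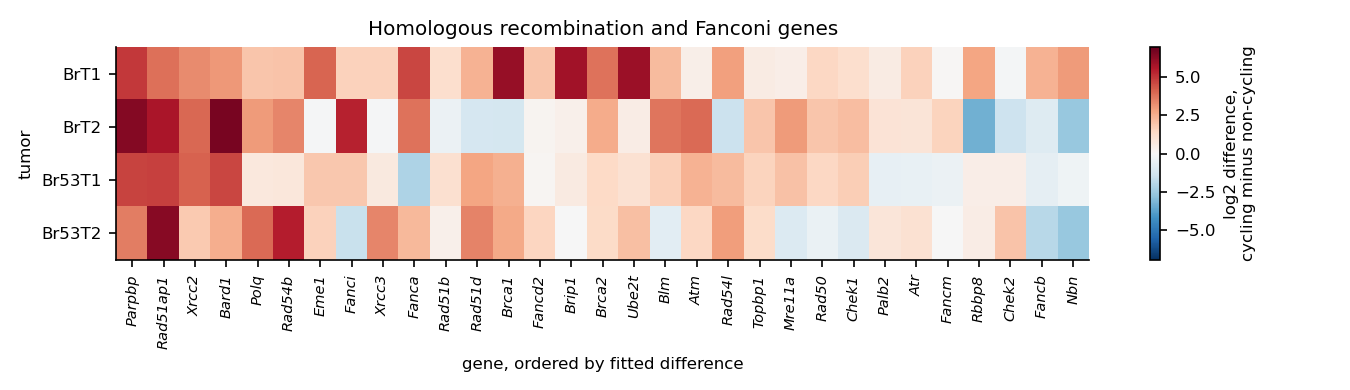
Heat map of the difference between cycling and non-cycling cells on the log2(summed CPM + 1) scale for the 31 tested genes of the homologous recombination and Fanconi list (x axis, ordered by the edgeR difference) in each tumor (y axis), red for higher and blue for lower in cycling cells. *Parpbp*, *Rad51ap1*, *Xrcc2* and *Bard1* are red in all 4 tumors, and *Brca1* in BrT2 is blue.

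The regulators moved less as a list. Of 15 tested E2F, RB and DREAM genes, 0 were called by edgeR, 3 were at an unadjusted p under 0.05, all higher, and DESeq2 called 3 higher and 0 lower. In all 4 tumors 6 were higher (40%, against 6.01% of all genes). The median log2 difference was 1.24, with tumor medians of 1.31 in BrT1, 0 in BrT2, 1.06 in Br53T2 and 0.78 in Br53T1. Over the alternatives the median of this list ran from 0.64 to 2.39. *Mybl2*, the MuvB partner that activates mitotic genes, was at 10.8, 34.5, 7.60 and 37.9 CPM in the cycling cells of BrT1, BrT2, Br53T1 and Br53T2 against 0.101, 0.198, 0.264 and 0.428 CPM (log2 difference 6.30 ± 1.51), with no overlap of the sums. A read after thinning was found in 6 of 32, 2 of 4, 1 of 6 and 2 of 14 of these cycling cells.

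*Foxm1*, the forkhead factor of the same program, was at 32.4, 7.36, 29.6 and 144 CPM in the cycling cells of BrT1, BrT2, Br53T1 and Br53T2 against 19.5, 3.34, 7.95 and 1.49 CPM. *E2f8*, a repressor of the E2F family, was at 41.3, 26.7, 3.80 and 26.9 CPM against 2.36, 2.17, 0.0661 and 12.4 CPM. *E2f1*, an activating E2F factor, was at 4.76, 0, 25.2 and 0.390 CPM against 11.3, 0.176, 0.528 and 0 CPM. *Foxm1* and *E2f8* were higher in each tumor with overlapping ranges, while *E2f1* was near 0 in several sums and had no shared direction.

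The G1 cyclins and kinase inhibitors did not move together. Of 16 tested genes, 0 were called by edgeR, 1 was higher and 1 lower at an unadjusted p under 0.05, DESeq2 called 1 higher and 0 lower, and the median log2 difference was 0.05. *Cdkn3*, a phosphatase of cyclin-dependent kinases that is itself expressed late in the cycle, was at 46.3, 18.4, 6.23 and 53.4 CPM in the cycling cells of BrT1, BrT2, Br53T1 and Br53T2 against 0.135, 3.07, 0.0661 and 0.207 CPM (log2 difference 6.57 ± 1.78). *Cdkn1a*, the p21 inhibitor induced by p53, was at 77.2, 57.3, 76.5 and 104 CPM in the cycling cells and 130, 87.8, 199 and 214 CPM in the non-cycling cells (log2 difference -1.01 ± 0.41; edgeR adjusted p = 0.995). The *Cdkn1a* sum was lower in the cycling cells of every tumor, but the 2 ranges overlapped and the difference did not pass the test. In BrT2 the median cell was higher in the cycling state (35.4 against 21.4 CPM, a read after thinning in 3 of 4 and 19 of 33 cells), and in Br53T2 the medians were 53.9 and 55 CPM. *Ccnd1*, cyclin D1 of early G1, was higher in the cycling cells of BrT1, Br53T1 and Br53T2 (386, 226 and 188 against 233, 106 and 81.3 CPM) and lower in those of BrT2 (106 against 205 CPM).

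The list of chromatin and tubulin proteins used by dividing cells held 15 tested genes. EdgeR called 0 of them, 8 were at an unadjusted p under 0.05, all higher, and DESeq2 called 5 higher and 0 lower. In all 4 tumors 11 were higher (73.3%, against 6.01% of all genes). The median log2 difference was 1.37. *Tubb5*, a beta tubulin, was at 1688, 861, 1131 and 1712 CPM in the cycling cells of BrT1, BrT2, Br53T1 and Br53T2 against 1104, 257, 358 and 524 CPM (log2 difference 1.37 ± 0.30; edgeR adjusted p = 0.419). *Tuba1b*, an alpha tubulin, was at 469, 247, 272 and 358 CPM against 155, 89.9, 90.3 and 66.9 CPM (log2 difference 1.70 ± 0.35; edgeR adjusted p = 0.394). *H2afx*, the histone variant phosphorylated at DNA breaks, was at 96.3, 86.7, 12.9 and 58.7 CPM against 14.3, 2.70, 3.04 and 3.07 CPM. The tubulins were high in non-cycling cells too, and *Tubb5* of the non-cycling BrT1 cells lay above the level of the cycling cells of BrT2.

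Growth genes were examined next. Of 22 ribosome biogenesis and MYC target genes, 0 were called by edgeR or DESeq2, 4 were higher at an unadjusted p under 0.05, and the median log2 difference was 0.36. In all 4 tumors 6 were higher (27.3%, against 6.01% of all genes) and 1 was lower (4.55%, against 8.55%). *Npm1*, a chaperone of ribosome assembly, was at 464, 796, 995 and 556 CPM in the cycling cells of BrT1, BrT2, Br53T1 and Br53T2 against 223, 345, 589 and 316 CPM (log2 difference 0.89 ± 0.25; edgeR adjusted p = 0.814). Of 16 nucleotide synthesis genes, 0 were called by edgeR, 1 was higher at an unadjusted p under 0.05, DESeq2 called 1 higher, and the median was 0.69. *Ppat*, the first enzyme of purine synthesis, was at 120, 117, 22.5 and 71.7 CPM against 34.7, 14.9, 15.9 and 7.25 CPM. The 21 cytosolic ribosomal protein genes had a median of -0.12, 14 glycolysis genes 0.11, 8 hypoxia genes -0.36 and 14 cholesterol synthesis genes -0.40, with 0 called by edgeR or DESeq2 and 0 at an unadjusted p under 0.05 in each of these 4 lists.

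Several lists had a median below that of all genes, and 0 of their genes were called lower by edgeR. The 21 tested p53 targets had a median of -0.43, with 0 called by edgeR, 1 lower at an unadjusted p under 0.05, 1 lower by DESeq2, and 4 lower and 1 higher in all 4 tumors. The median turned to 0.23 without BrT2 and was -0.93 without BrT1. *Sesn1*, a p53 target that restrains growth signalling, was at 13.8, 0.690, 0.422 and 5.11 CPM in the cycling cells of BrT1, BrT2, Br53T1 and Br53T2 against 18, 51.6, 22.6 and 24.8 CPM (log2 difference -3.70 ± 1.65), with no overlap between the sums of the states, but at a threshold of 100 CPM the log2 difference was -0.31. A minority of cells had a read after thinning, which was found in 10 of 32 cycling and 4 of 15 non-cycling cells of BrT1, in 1 of 4 and 12 of 33 of BrT2, in 5 of 14 and 5 of 37 of Br53T2 and in 0 of 6 and 5 of 24 of Br53T1. The share was thus higher in the cycling cells of BrT1 and Br53T2. The 11 quiescence genes had a median of -0.62, with 0 called by either tool and 0 at an unadjusted p under 0.05. The 19 immediate early genes had a median of -0.34, with 0 called by either tool, 1 lower at an unadjusted p under 0.05, and 2 lower in all 4 tumors (10.5%, near the 8.55% of all genes), and the median was -0.03 without BrT1. *Junb*, a subunit of the AP-1 factor, was at 180, 52.5, 132 and 73.3 CPM in the cycling cells against 462, 73.3, 199 and 145 CPM, 1 of these 2 by its sums. In BrT2 its median cell was higher in the cycling state (45.5 against 36.7 CPM).

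Among signalling lists, the 14 tested TGF-beta response genes had a median of -0.66, with 0 called by edgeR or DESeq2 and 2 lower at an unadjusted p under 0.05. In all 4 tumors 3 were lower (21.4%, against 8.55% of all genes). *Id3*, an inhibitor of differentiation factors, was at 792, 242, 2.11 and 287 CPM in the cycling cells of BrT1, BrT2, Br53T1 and Br53T2 against 1397, 397, 8.02 and 815 CPM (log2 difference -1.29 ± 0.31; edgeR adjusted p = 0.553). *Ctgf*, a secreted matrix protein, was at 39.2, 136, 7.39 and 141 CPM against 98.0, 302, 91.1 and 339 CPM (log2 difference -1.86 ± 0.53; edgeR adjusted p = 0.819). Both sums were lower in the cycling cells of each tumor, and the spread between tumors was wider than the difference within them. The typical cell did not always follow the sum. The median cell of BrT2 had 237 CPM of *Id3* in the cycling and 57.8 CPM in the non-cycling state, with a read after thinning in 4 of 4 and 23 of 33 cells. For *Ctgf* in Br53T2 the medians were 19.7 and 4.13 CPM (10 of 14 and 20 of 37 cells).

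The 10 IL6, JAK and STAT3 genes had a median of -0.68, with 0 called by edgeR, 1 lower at an unadjusted p under 0.05 and 1 lower by DESeq2. In all 4 tumors 3 were lower (30%, against 8.55% of all genes). The median was -0.31 without BrT2 or without Br53T2. *Socs3*, the feedback inhibitor of that pathway, was at 18.8, 7.82, 2.01 and 32.8 CPM in the cycling cells of BrT1, BrT2, Br53T1 and Br53T2 against 105, 68.2, 28.4 and 41.3 CPM (log2 difference -2.55 ± 0.91), a lower sum in each tumor with a narrow gap in Br53T2. Its median cells were at 2.88 CPM in cycling against 0 in non-cycling cells of BrT2 and at 1.97 against 1.31 CPM in Br53T2, where 6 of 14 and 14 of 37 cells had a read after thinning. The 17 TNF and NF-kB genes had a median of -0.33, with 0 called by edgeR, 1 lower at an unadjusted p under 0.05 and 1 lower by DESeq2. The 24 interferon genes had a median of -0.02, with 0 called by edgeR, 0 at an unadjusted p under 0.05 and 1 lower by DESeq2. Over the alternatives the median ran from -1.26 to 0.26. Their tumor medians ran from 2.15 in BrT1 through -0.03 in BrT2 and -0.01 in Br53T2 to -1.12 in Br53T1, the widest spread among the signalling lists. The 6 MHC class I genes had a median of -0.12, with 0 called by either tool and 0 at an unadjusted p under 0.05.

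The 19 tested mesenchymal and matrix genes had a median of -0.86, with 0 called by edgeR or DESeq2 and 2 lower at an unadjusted p under 0.05. The median was -0.35 without BrT2, near that of all genes with 4 tumors, and -1.29 without Br53T2. In all 4 tumors 0 were higher and 2 were lower (10.5%, near the 8.55% of all genes), and the tumor medians were -0.09 in BrT1, -1.10 in BrT2, -0.26 in Br53T2 and -0.03 in Br53T1. *Mmp2*, a matrix-degrading protease, was at 129, 46.7, 40.4 and 4.29 CPM in the cycling cells of BrT1, BrT2, Br53T1 and Br53T2 against 278, 181, 67 and 14.2 CPM (log2 difference -1.44 ± 0.47). *Postn*, the matrix protein periostin, was at 121, 216, 10.8 and 238 CPM against 249, 284, 249 and 522 CPM (log2 difference -1.69 ± 0.68). These were the 2 genes with a lower sum in the cycling cells of each tumor, *Mmp2* with overlapping ranges and *Postn* with a gap from 238 to 249 CPM. Median cells went the other way for *Mmp2* in Br53T1 (13.7 CPM in cycling and 0.488 in non-cycling cells) and for *Postn* in BrT2 (66.3 and 4.81 CPM) and Br53T1 (11.5 and 7.05 CPM). In BrT1 1 of 32 cycling and 5 of 15 non-cycling cells had a *Postn* read after thinning, so its sums there rested on few cells.

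The 19 epithelial and luminal genes had a median of 0.03, with 0 called by edgeR or DESeq2 and 2 lower at an unadjusted p under 0.05. In all 4 tumors 3 were lower (15.8%, against 8.55% of all genes). *Gata3*, the luminal master factor, was at 35.6, 1.38, 391 and 244 CPM in the cycling cells of BrT1, BrT2, Br53T1 and Br53T2 against 124, 19.4, 436 and 393 CPM (log2 difference -1.55 ± 0.60), though its median cell in Br53T1 was at 442 CPM in the cycling and 296 CPM in the non-cycling state. The summed level of the list was 842, 6092, 7835 and 17835 CPM in cycling cells and 747, 6484, 9684 and 14024 CPM in non-cycling cells, lowest in BrT1 and highest in Br53T2 in both states. The 6 tested milk genes had a median of 0.11, with 0 called and 0 at an unadjusted p under 0.05 by edgeR and 0 called by DESeq2. Over the alternatives this median ran from -1.31 to 0.46 and changed sign in 5.

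**Figure D5:**
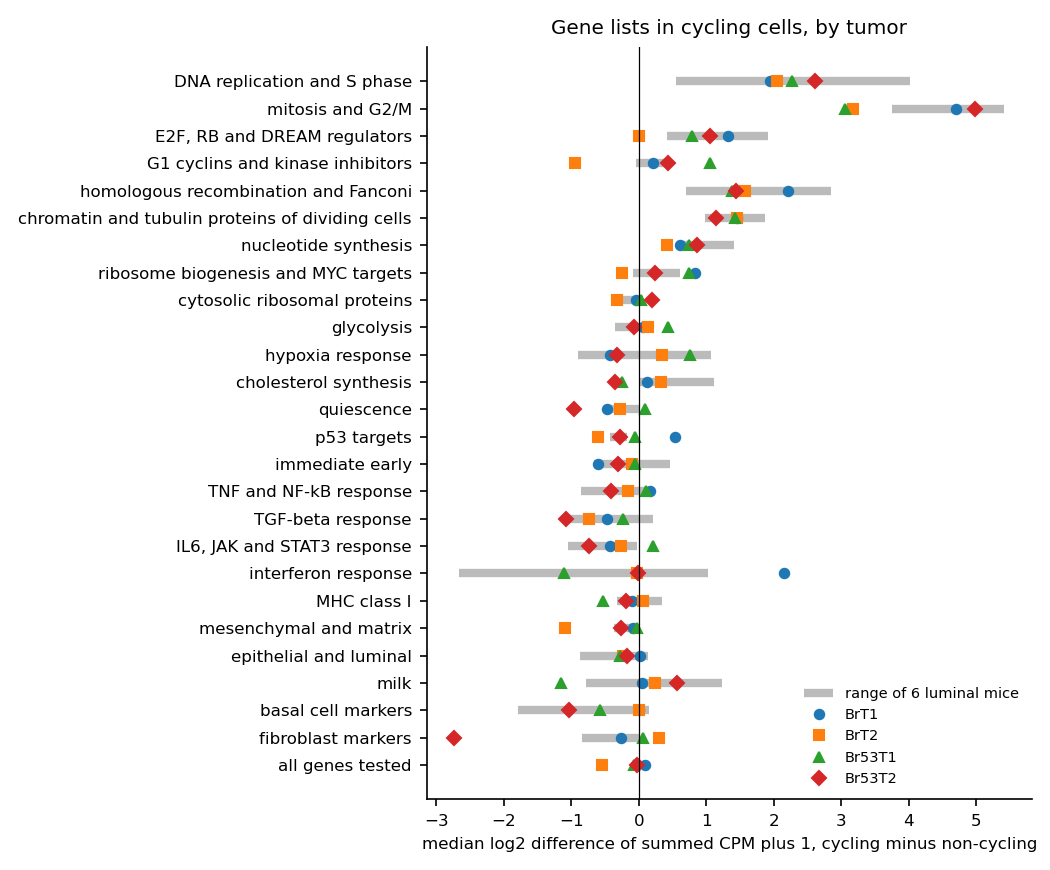
Median difference between cycling and non-cycling cells on the log2(summed CPM + 1) scale (x axis) for each gene list (y axis), 1 symbol per tumor; the grey bar is the range of the medians of 6 luminal mice. The tumors lie between 3.05 and 4.99 for the mitosis and G2/M list and between 1.94 and 2.62 for the S phase list, and BrT1 lies at 2.15 for the interferon list.

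Markers of other cell types were summed over their whole lists to show what else the members held. The 14 immune markers summed to 32.5, 219, 169 and 312 CPM in the cycling cells of BrT1, BrT2, Br53T1 and Br53T2 and to 84.4, 711, 583 and 180 CPM in the non-cycling cells. Nearly all of this was *Cd14*, a receptor for bacterial lipopolysaccharide, while *Ptprc*, the common leukocyte antigen, was at 0 in the cycling cells of BrT1 and BrT2 and at most 0.422 CPM in any sum, and *Laptm5* was at 0 in all 8. The 7 fibroblast markers summed to 4276, 25.3, 1.90 and 56.4 CPM against 5119, 2.96, 1.76 and 117 CPM, so they were high in both states of BrT1 and low elsewhere. The 9 basal cell markers summed to 18.8, 84.7, 542 and 3362 CPM against 35.8, 14.9, 233 and 6707 CPM. The 7 endothelial markers stayed at or below 1.73 CPM in cycling cells and 17.7 CPM in non-cycling cells, and the 4 red cell markers in the table at or below 7.81 and 9.33 CPM. The immune marker sum, nearly all *Cd14*, was thus lower in the cycling cells of 3 tumors and higher in those of Br53T2. This does not describe the leukocyte genes *Ptprc* and *Laptm5*, and the part of these markers in the differences above was not tested.

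Cycling luminal cells allowed the same contrast in 6 luminal mice, v53L having no cycling cell. The 4 called genes were higher in the cycling cells of 6 of 6 luminal mice, by a mean log2 difference of 5.33 ± 0.95 for *Ube2c*, 6.50 ± 0.94 for *Nusap1*, 6.45 ± 1.41 for *Shcbp1* and 4.93 ± 1.47 for *Pbk* (SD, n = 6). The list medians of the luminal mice ran from 3.75 to 5.42 for the mitosis list, 0.54 to 4.02 for the S phase list and 0.69 to 2.86 for homologous recombination. The tumor medians of the S phase and homologous recombination lists lay within those ranges, and for the mitosis list BrT2 and Br53T1 lay below them.

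An interaction term in edgeR asked whether the cycling difference was larger or smaller in tumors than in luminal mice, over 20 sums from 10 mice and 13436 genes. No gene was called (0 of 13436, 0%), while 460 were at an unadjusted p under 0.05 (193 with a positive and 267 with a negative interaction), and DESeq2 called 54 and 90. For the 4 genes called in tumors the interaction was 0.03 ± 0.91 for *Ube2c*, -1.81 ± 1.48 for *Nusap1*, 0.37 ± 1.5 for *Shcbp1* and -0.23 ± 0.77 for *Pbk* (log2 ± SE; edgeR adjusted p = 1 for each). *E2f8* was at -6.40 ± 1.92 and *Rrm2* at -4.39 ± 1.83, so their differences were larger in luminal mice by these estimates, which did not pass the test. For the 4 genes called in tumors, the standard errors leave room for a difference in either direction.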

How the data were processed

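Single cells of sorted mammary tumors and luminal epithelium were captured on Fluidigm C1 chips and sequenced without molecular identifiers. Per the labels and the study's methods, the authors filtered reads with sickle, trimmed them with Trim Galore 0.4.1, aligned them to mm10 with STAR 2.5.3a and counted them with Subread 1.5.3. The table deposited by the authors gives unnormalized read counts for 21004 genes in every cell; the annotation, strand setting and filters are not given in the sources used here. No cell had the same counts as another (0 cells), and 0 mitochondrial genes were in the table. The authors inspected chips for doublets by microscope, and doublets were not called again.

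Groups came from the labels, and members from the threshold of 200 CPM over 5 genes. The members and the gene lists were chosen with earlier results of these data known. Counts were summed per tumor and state and tested with edgeR 4.0.16 in R 4.3.3 (filterByExpr, TMM, quasi-likelihood, tumor as a block, Benjamini-Hochberg), leaving out the 5 genes of the rule, with 3 residual degrees of freedom. Both sums of a tumor come from the same animal and chip, which is why the tumor is a block. The interaction used mice with at least 3 cells in each state. Values per tumor are log2(summed CPM + 1). Exact permutation tests were two-sided. Shares of cells with a read used cells thinned to 100000 reads. The edgeR step was also run on simulated counts with known changes, and the outcome of that run is not given here.

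Named genes were those called, with the same sign in all 4 tumors averaging 10 CPM or more in their higher state, up to 10 per direction, and genes of the lists; 1 gene of the homologous recombination list is not reported here and was left out of that list. Alternatives were DESeq2 1.42.0, limma 3.58.1 on mean CPM, RLE factors, library size alone, no low-count filter, thinned cells, thresholds of 100 and 400 CPM, leaving out cells between 50 and 400 CPM, no tumor block, and leaving out each mouse. The alternatives for counts of genes with 1 sign in all tumors were added after seeing the data. Intervals cover counting error only.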

Additional observations from a re-analysis of the deposited data

Results flagged for a closer look

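In 6 of 87 sets of 4 tumor values, 1 tumor lay far from the other 3, judged by its gap to the nearest tumor as a share of the whole range; chance gives about 1 in 20. For *Ccna2* (gap 0.865) the log2 difference between cycling and non-cycling cells was 0.55 in Br53T1 against 5.96 to 6.80 in the other tumors. For *Ctgf* (gap 0.936) it was -3.46 in Br53T1 against -1.30 to -1.15. Br53T1 was thus the tumor apart for these 2 genes, and its cycling sum rests on 6 cells.

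For *Pcna* (gap 0.847) the difference was 2.98 in BrT2 against 0.81 to 1.14 in the other tumors. For *Tubb5* (gap 0.924) it was 0.61 in BrT1 against 1.66 to 1.74. For *Tuba1b* (gap 0.847) it was 2.40 in Br53T2 against 1.45 to 1.59, and for the median of the chromatin and tubulin list (gap 0.891) it was 1.15 in Br53T2 against 1.43 to 1.46.

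In 4 of 86 sets, both BrT tumors lay on one side of 0 and both Br53T tumors on the other; this is a small share of the sets, the difference between the genotypes was not tested, and no genotype difference is read from the 4. Detected genes per cell after thinning were fewer in cycling cells of BrT1 (-353) and BrT2 (-60.5) and more in those of Br53T1 (764.5) and Br53T2 (836), a difference of 1007 genes between the genotype means. The split was absent at 100 CPM (170 and 155 in BrT1 and BrT2) and at 400 CPM (303.5 and 155), and BrT2 was at 428.5 without thinning. The median of the cytosolic ribosomal protein list was -0.04 and -0.32 in BrT1 and BrT2 and 0.03 and 0.19 in Br53T1 and Br53T2, a difference of 0.29. The medians of all genes were 0.10, -0.55, -0.07 and -0.02 in BrT1, BrT2, Br53T1 and Br53T2, so relative to them BrT2 lay above and BrT1 below. For the cholesterol synthesis list the medians were 0.12 and 0.33 against -0.25 and -0.35, a difference of -0.53. For *E2f1* the values were -1.09 and -0.23 against 4.10 and 0.48, a difference of 2.95, where BrT2 had 0 against 0.176 CPM and Br53T2 0.390 against 0 CPM.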

How the results depend on the processing

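The call of 4 genes rests on 4 tumors with 3 residual degrees of freedom, and leaving out 1 tumor left 0 to 4 genes called higher; *Pbk* lost its call without any 1 of the tumors (adjusted p 0.0596 without Br53T1 to 0.312 without BrT1). Without the replicate block edgeR called the same 4 genes (4 of 4), as with RLE factors and with library size alone; the pairing of the sums by animal changed no other call. Genes called higher numbered 205 with DESeq2, 8 without the filter and 0 with limma (349 higher and 495 lower at an unadjusted p under 0.05). They numbered 21 in thinned cells, 6 at 100 CPM (3 of the 4, without *Pbk* at an edgeR adjusted p of 0.128), 7 at 400 CPM and 9 with cells between 50 and 400 CPM left out. Genes called lower numbered 182 with DESeq2, 1 without the filter and 1 in thinned cells. The interaction called 54 and 90 genes with DESeq2, 1 higher without the filter, 1 higher in thinned cells, and 0 to 1 higher on leaving out a mouse. Genes higher in all remaining tumors numbered 1086 to 1687 on leaving out 1 tumor, and genes lower 1535 to 2149, since fewer tumors need to share the sign. The median over all genes ranged from -0.51 at 400 CPM to -0.07 without the block. The cause of the other shifts was not tested.

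Leaving out cells between 50 and 400 CPM gave medians of 3.49 for the S phase list, 6.42 for mitosis, 2.39 for E2F and RB, 3.46 for homologous recombination, 2.09 for chromatin and tubulin, 0.99 for nucleotide synthesis, -0.019 for cholesterol synthesis, -0.85 for TNF, -0.55 for MHC class I, -0.17 for epithelial genes and -1.27 for basal markers. A threshold of 400 CPM gave 0.64 for E2F and RB, 1.83 for chromatin and tubulin, 0.89 for nucleotide synthesis, -0.87 for TNF, -0.45 for MHC class I and -0.36 for epithelial genes. Homologous recombination was at 1.58 with limma and 1.61 in thinned cells, and cholesterol synthesis at 0.0093 in thinned cells and 0.16 at 100 CPM. Without the block TNF was at -0.0093, epithelial genes at -0.10 and basal markers at -0.72, and without the filter milk genes at -0.90. Leaving out 1 tumor gave 0.77 to 1.87 for E2F and RB, 1.69 to 2.34 for homologous recombination, 1.31 to 1.53 for chromatin and tubulin, 0.44 to 0.85 for nucleotide synthesis, -0.93 to 0.23 for p53 targets, -0.42 to -0.027 for immediate early genes, -1.29 to -0.35 for mesenchymal genes, -0.22 to 0.12 for epithelial genes, -1.31 to 0.33 for milk genes, -1.07 to 0.50 for basal markers and -0.77 to 1.58 for fibroblast markers. Across the alternatives the median changed sign in 6 for interferon genes, 5 each for epithelial and milk genes, 4 for glycolysis, 3 for fibroblast markers, 2 each for the G1, ribosomal protein, hypoxia, cholesterol and basal lists and 1 for p53 targets. The sign reversed for *Cdc6* without Br53T2 (-0.83) and without BrT2 (-0.59), for *E2f1* without Br53T1 (-0.0086), for *Ccnd1* at 400 CPM (-0.29) and for *Trp53* without Br53T2 (-0.10). On leaving out 1 tumor the values reached up to 2.72 for *Cdc6*, 4.12 for *E2f1* and 0.68 for *Trp53*.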
